A study of Homo sapiens with 4 samples.

Results

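The colony-stimulating factors and their receptors are described here by 9 genes of 68886 in the joint human and mouse feature set. The genes were given as a list of names, and the list was made with earlier results of these data known. The human ligand genes CSF1 and CSF3 were read in human tumour cells. The mouse ligand genes Csf1, Il34, Csf2 and Csf3 and the receptor genes Csf1r, Csf2rb and Csf3r were read in mouse host cells. MCF10DCIS.com is a human cell line that models ductal carcinoma in situ of the breast. Its cells were seeded on decellularised extracellular matrix (dECM) from mouse mammary gland, cultured for 12 days and implanted in the fat pads of Rag1-/- mice for 4 weeks. The matrix came from mice of 2 to 3 months (the young pool) or of at least 18 months (the aged pool). Both pools therefore share the cell line and the recipient genotype, which lacks mature T and B cells, and the age of the recipients is not given in the labels. Right and left pads of one mouse were used, and the number of tumours in each pool is not given in the labels. Each pool was 1 gene expression library made with 10x 3′ chemistry after dead cell removal, so no test across samples was possible. Every interval below is a 95% interval for counting error only.

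M-CSF, encoded by Csf1, and IL-34 are ligands of the receptor tyrosine kinase CSF1R, on which most macrophages depend. GM-CSF, encoded by Csf2, acts through a specific alpha chain and the shared beta chain encoded by Csf2rb, which also serves IL-3 and IL-5. G-CSF, encoded by Csf3, drives the production and release of neutrophils through CSF3R. Human G-CSF and human M-CSF can act on the mouse receptors, whereas human GM-CSF does not. Epithelial tumours and their fibroblasts are known sources of these factors, and myeloid cells carry most of the receptors.

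The young pool held 2125 human and 11946 mouse cells after filtering, and the aged pool 2001 and 12924. The median human cell had 30942 and 30455 unique molecular identifiers (UMIs), and the median mouse cell 2285.5 and 2261. The human cells carried the epithelial keratin genes, with KRT17 at 3856 and 3899 UMIs per 1000000 of the group's UMIs (CPM), and the leukocyte gene PTPRC at 0.012 and 0.013 CPM. Host clusters were named from marker genes, and 5 of them stayed unnamed. The pools shared 190 barcodes, of which 157 were kept in both. Throughout, a pair of values is given as young pool first and aged pool second. CPM is formed from the summed UMIs of a cell group, and levels of different genes are not ranked against each other. In pooled sums, fewer expressing cells and less RNA per cell are not separated unless shares of cells are given.

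The mouse rows in human barcodes served as the background. This background can hold free RNA and RNA of host cells caught in the same droplet, which were not told apart. The median human barcode had 223 and 250 mouse UMIs at 90% purity, and 183.5 and 206 at 98%. Csf3r had 0.458 and 0.469 UMI per human barcode, Csf2rb 0.208 and 0.184, Csf1 0.119 and 0.138, and Csf1r 0.050 and 0.052. Human barcodes of at least 98% human UMIs, which are chosen for few mouse UMIs, gave lower backgrounds: 0.104 and 0.108 for Csf3r, 0.057 and 0.050 for Csf2rb, 0.033 and 0.055 for Csf1, and 0.020 and 0.021 for Csf1r. Multiples of the background therefore depend on this purity cut, and both are given, at 90% and then at 98%. The other ligands lay far lower, with Csf3 at 0.0047 and 0.0085, Il34 at 0.0028 and 0.0035, and Csf2 at 0.0019 and 0.0015. A low level of Csf3r, Csf2rb or Csf1 in a class with few cells is therefore read against these backgrounds.

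CSF3 was transcribed by a small part of the tumour cells. Over all human cells it had 1267 and 786 UMIs, or 15.7 (14.9 to 16.6) and 10.2 (9.47 to 10.9) CPM. A UMI was found in 5.41% and 3.90% of cells. Tumour clusters 2 and 3 held 99.5% and 98.2% of the CSF3 UMIs and only 23.8% and 20.3% of the cells. Cluster 2 was led by MIR205HG, PLAT, PTGS2 and IL24, and cluster 3 by MMP1 and MMP9. CSF3 had 58.5 and 45.1 CPM in cluster 2 and 80.2 and 71.3 CPM in cluster 3. Outside both clusters it had 0.097 and 0.221 CPM. In the aged pool cluster 10, made of shallow cells with S100A8 and LCE3D, had 10.99 CPM from 11 UMIs, 63.6% of them in 1 cell. Even within the producing clusters the transcripts were uneven, since the 10 cells with most CSF3 held 41.8% and 42.9% of all its UMIs. Mouse barcodes had 0.0021 and 0.0019 CSF3 UMI each.

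CSF1, the human M-CSF gene, had a smaller share of its UMIs in clusters 2 and 3. It had 213 and 190 UMIs, or 2.65 (2.30 to 3.03) and 2.46 (2.12 to 2.83) CPM, in 7.29% and 6.90% of tumour cells. Cluster 2 was highest at 7.005 (5.56 to 8.71) and 9.23 (7.29 to 11.5) CPM. In the aged pool its interval overlapped that of no other cluster. In the young pool it overlapped those of clusters 9 and 10, which had 1 and 0 CSF1 UMIs. Clusters 2 and 3 together held 49.3% and 45.8% of the CSF1 UMIs. The remaining clusters had 1.75 and 1.62 CPM on average. CSF1 lies on chromosome 1 from 109910506 to 109930992 and CSF3 on chromosome 17 from 40015440 to 40017813, in RefSeq's GRCh38.p14.

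The other human genes of the family were read from a list of 14 human rows, and 5 of the 14 were abundant enough to be compared. Of the 5, 0 stood apart between the pools over all tumour cells, where 0.221% of all genes compared did, and their median log2 ratio was 0.07 against 0.00 for all genes compared there. CSF2, the human GM-CSF gene, came mostly from 1 cluster, with 68.5 and 36.2 CPM in cluster 3. That is 1.89-fold lower in the aged pool, in a cluster where 1.59% of all genes compared stood apart. The 10 richest cells held 64.2% and 60.7% of all CSF2 UMIs, and without the richest cell of each pool cluster 3 had 58.7 and 32.7 CPM (1.79-fold lower, 1.503 to 2.15). IL34 had the reverse layout, with 25.2 and 24.6 CPM outside clusters 2 and 3 and 1.59 and 1.58 CPM inside them. The human receptor genes were scarce in tumour cells, with 80 and 95 UMIs in all for CSF1R, 34 and 19 for CSF2RA, 21 and 1 for CSF3R and 1 and 0 for CSF2RB.

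**Figure D1:**
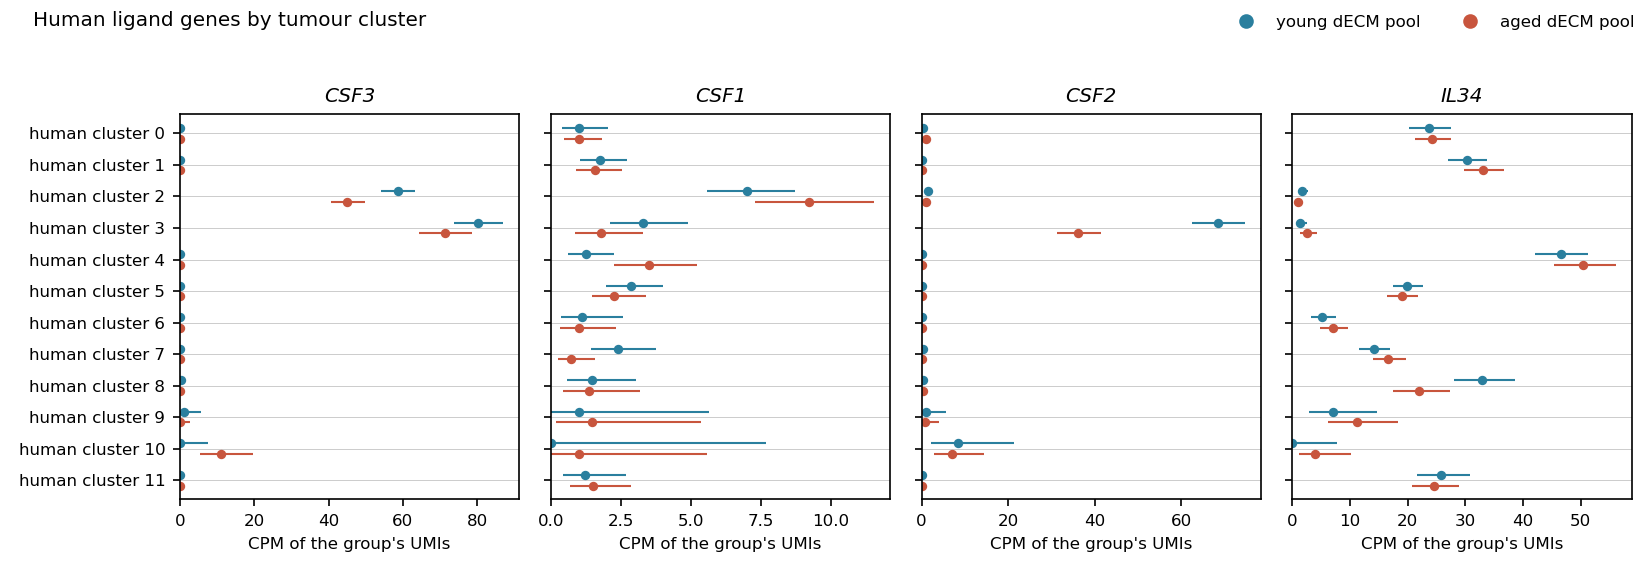
Level of CSF3, CSF1, CSF2 and IL34 in the 12 tumour clusters, as CPM on a linear axis that differs by gene. Points are the summed level in each pool and bars the 95% Poisson interval. CSF3 sits in clusters 2 and 3 (45.1 to 80.2 CPM), and IL34 is low in both.

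The difference of CSF3 between the pools was smaller than that between sets of cells inside a pool. Over all tumour cells CSF3 was below the 20 CPM needed for a comparison. Hashing tags, antibody barcodes that mark cells before pooling, gave 3 sets of at least 100 tumour cells in each pool. In the young pool CSF3 had 85.8 CPM in cells with tag H-HTO-6, 8.73 with H-HTO-3 and 4.23 with H-HTO-4. In the aged pool it had 25.0 CPM with H-HTO-2, 20.1 with H-HTO-4 and 1.88 with H-HTO-3. The share of cells in clusters 2 and 3 also varied, from 7.36% to 71.1% in the young sets and from 22.5% to 33.8% in the aged sets. Tags H-HTO-3 and H-HTO-4 had enough cells in both pools. CSF3 was lower in the aged pool under H-HTO-3 (log2 ratio -2.22) and higher under H-HTO-4 (2.25). The labels do not link a tag of one pool to the same tag of the other. These 2 ratios therefore show the spread between sets of cells and are not a matched comparison of the pools. Which tumour or animal a tag stands for is not given in the labels. CSF2 also varied between these sets, summed over all their tumour cells. In the young pool it had 19.4 CPM with H-HTO-6, 17.5 with H-HTO-3 and 2.40 with H-HTO-4. In the aged pool CSF2 had 6.03 CPM with H-HTO-2, 2.21 with H-HTO-3 and 0.892 with H-HTO-4.

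Among host cells Csf1 had 2 broad sources. Neutrophil-like cells had 241 (235 to 247) and 275 (268 to 282) CPM and held 50.2% and 44.9% of all Csf1 UMIs. Fibroblast-like cells had 201 (195 to 208) and 223 (217 to 229) CPM and held 38.2% and 44.4%. A fibroblast-like cell carried 6.33 and 5.78 Csf1 UMIs on average, and a neutrophil-like cell 0.587 and 0.636, which is 4.95 and 4.61 times the background at 90% purity and 17.9 and 11.6 times at 98%. Among cells with at least 2000 UMIs, thinned to 2000, 30.2% and 32.4% of fibroblast-like and 21.4% and 24.2% of neutrophil-like cells had a Csf1 UMI. Shallower cells were left out of these shares. The median neutrophil-like cell had 2025 and 1953 UMIs and the median fibroblast-like cell 23510 and 20996, so mainly neutrophil-like cells were left out. Without thinning, over all cells, the shares were 81.3% and 81.5% against 26.3% and 27.6%.

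Some smaller groups also had high Csf1. Unnamed cluster 11, led by the interferon-induced genes Rsad2, Isg15 and Ifit1 and carrying 9 neutrophil markers, had 290 (258 to 325) and 280 (252 to 310) CPM, the first in order among groups counted in both pools. Its interval overlapped that of neutrophil-like cells in the aged pool only. Unnamed cluster 17, a group of Rgs5 and cell cycle genes with 9 fibroblast markers, had 145 and 138 CPM. Macrophage-like cells had 39.7 and 36.0 CPM, endothelial-like cells 20.3 and 18.5, and NK-like cells 27.4 and 19.99. The intervals of endothelial-like and NK-like cells overlapped in each pool, so their order is not resolved. Per cell, NK-like cells had 1.47 and 0.851 times the background at 90% purity and 5.34 and 2.15 times at 98%, and endothelial-like cells 2.65 and 2.04 and then 9.61 and 5.14 times. Macrophage-like cells had 3.73 and 2.67 times at 90% and 13.5 and 6.74 times at 98%. The mast or basophil-like cells, counted in the aged pool only (24 cells), had 1836 (1515 to 2206) CPM from 114 UMIs.

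Il34 came mostly from fibroblast-like cells. Fibroblast-like cells had 17.3 (15.5 to 19.2) and 15.9 (14.4 to 17.4) CPM and held 85.6% and 84.3% of its UMIs, in 28.8% and 23.9% of cells before thinning. Unnamed cluster 17 had 10.6 and 15.9 CPM, with an interval that overlapped that of fibroblast-like cells in the aged pool. Unnamed cluster 16, whose cells had a median of 690.5 UMIs, had 29.6 and 48.8 CPM, but from 4 and 5 UMIs. Neutrophil-like cells had 4 and 3 Il34 UMIs in all.

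Csf2 came from fibroblast-like and NK-like cells. Fibroblast-like cells had 33.8 (31.3 to 36.4) and 22.1 (20.4 to 24.0) CPM and held 92.8% and 84.8% of its UMIs, in 9.29% and 4.32% of cells. NK-like cells, a known source of GM-CSF, had 19.7 (11.7 to 31.2) and 43.4 (33.4 to 55.6) CPM. These rested on 18 and 63 UMIs, and 1 cell held 50.8% of those in the aged pool. Monocyte-like and dendritic-like cells had 0 Csf2 UMIs in both pools.

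Csf3 had scattered sources with a few very rich cells. Endothelial-like cells had 71.9 (60.4 to 85.0) and 40.9 (32.1 to 51.2) CPM, with 51.4% and 54.7% of the UMIs in 1 cell. Luminal epithelium-like cells had 38.4 (31.3 to 46.6) and 111 (94.5 to 130) CPM, with 45.1% and 33.3% in 1 cell. They numbered 101 and 61, too few in the aged pool for a comparison. Fibroblast-like cells had 35.7 and 16.2 CPM and held 51.1% and 35.6% of all Csf3 UMIs. Unnamed cluster 17 had 38.2 (31.7 to 45.7) and 11.7 (8.45 to 15.8) CPM. It numbered 69 and 109 cells, too few in the young pool for a comparison. Unnamed cluster 11 had 22.6 and 21.7 CPM. Neutrophil-like cells had 11.5 and 15.05 CPM, and by their number held 18.0% and 27.2%. Macrophage-like cells had 1.51 and 14.7 CPM, and 37.7% of the aged UMIs came from 1 cell.

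**Figure D2:**
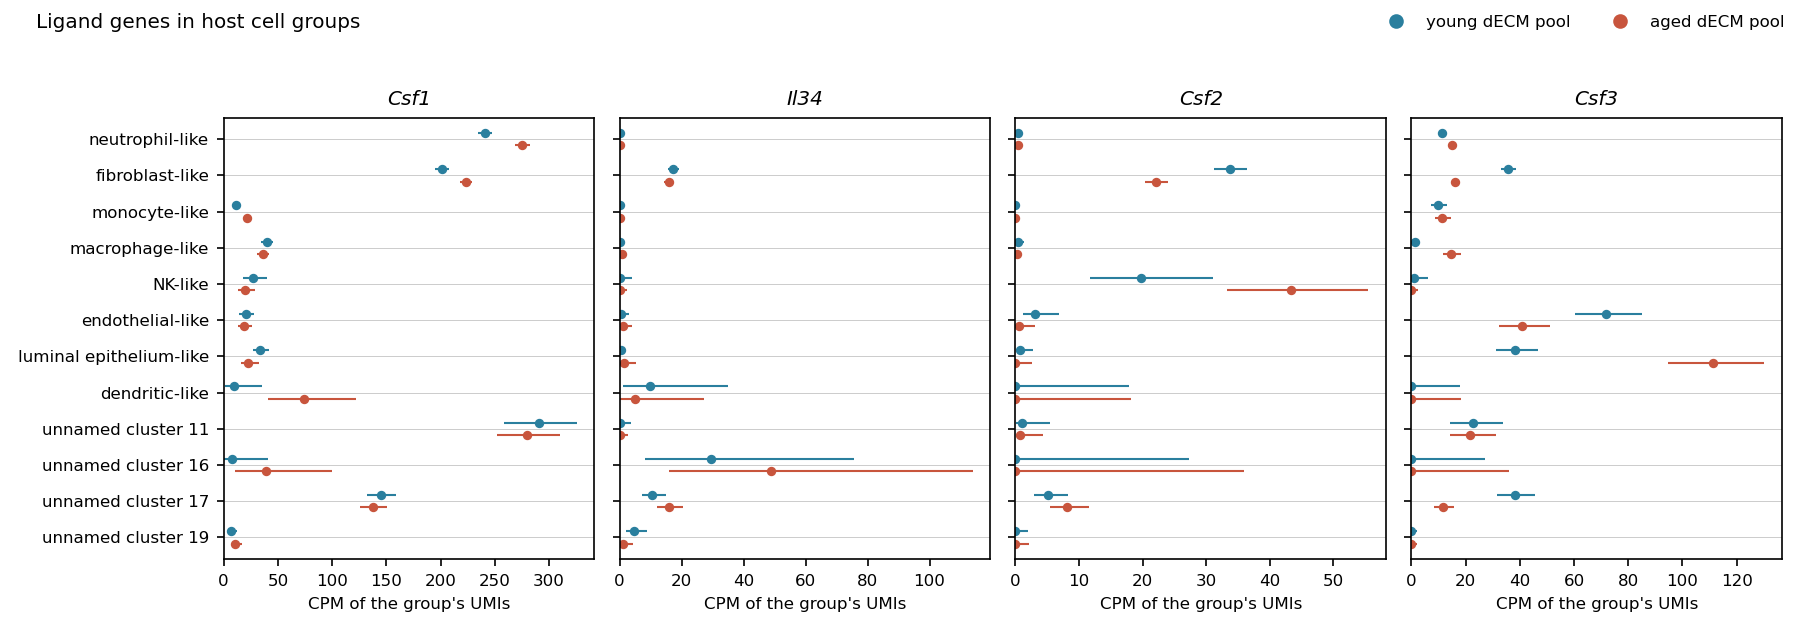
Level of the mouse ligand genes Csf1, Il34, Csf2 and Csf3 in host groups with at least 20 cells in both pools, as CPM on linear axes that differ by gene. Points are pool sums and bars 95% Poisson intervals. Csf1 is high in neutrophil-like and fibroblast-like cells (201 to 275 CPM), and Csf2 in fibroblast-like and NK-like cells.

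The receptor genes divided the myeloid cells. Csf1r was highest in unnamed cluster 19 at 524 (492 to 557) and 511 (477 to 546) CPM. That cluster was led by Acp5, Ctsk, Mmp9 and Atp6v0d2, genes of bone-resorbing osteoclasts, and carried 9 macrophage markers. Macrophage-like cells had 368 (351 to 384) and 426 (409 to 444) CPM, and monocyte-like cells 310 (295 to 327) and 305 (291 to 319). These 3 groups did not overlap in either pool. Neutrophil-like cells had 33.7 and 34.5 CPM, which was 1.65 and 1.53 times the background per barcode at 90% purity and 4.15 and 3.85 times at 98%. Fibroblast-like cells, a main source of its ligands, had 4.93 and 5.69 CPM of Csf1r.

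Csf3r was highest in unnamed cluster 11 and in neutrophil-like cells. Neutrophil-like cells had 970 (957 to 983) and 995 (982 to 1008) CPM and held 88.1% and 86.2% of its UMIs. Of those with at least 2000 UMIs, thinned to 2000, 81.1% and 80.6% had a Csf3r UMI, and shallower cells were left out of this share. Unnamed cluster 11 had 1204 and 1344 CPM. Monocyte-like cells had 97.4 and 97.7 CPM and macrophage-like cells 72.8 and 67.4, which per cell was 1.69 and 1.64 times and 1.77 and 1.47 times the background at 90% purity. At 98% purity these were 7.41 and 7.12 times and 7.77 and 6.40 times. Dendritic-like cells, few in number, had 62.9 (33.5 to 107) and 143 (95.5 to 205) CPM. Per cell that was 0.915 and 2.06 times the background at 90% and 4.02 and 8.96 times at 98%. Luminal epithelium-like cells had 62.0 and 22.8 CPM, or 3.56 and 1.12 times at 90% and 15.7 and 4.87 times at 98%. In NK-like cells the UMIs per cell were 0.549 and 0.302 times the background, and 2.41 and 1.31 times at 98%.

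Csf2rb spanned the myeloid classes. Unnamed cluster 11 had 405 (367 to 447) and 486 (449 to 526) CPM, above monocyte-like cells without overlap in the aged pool only. Monocyte-like cells had 368 (351 to 386) and 388 (372 to 405) CPM, and neutrophil-like cells 352 (344 to 359) and 363 (355 to 371). Their intervals overlapped in the young pool and did not in the aged pool. Dendritic-like cells (31 and 30 cells, led by Siglech and Ccr9) had 343 and 265 CPM, and macrophage-like cells 243 and 246. Mast or basophil-like cells of the aged pool had 983 (752 to 1262) CPM. Endothelial-like cells had 69.3 and 80.6 CPM, or 5.15 and 6.63 times the background per cell at 90% purity and 18.7 and 24.4 times at 98%. Csf2rb has a near-identical neighbour, Csf2rb2, so the split of reads between them is uncertain. Csf2rb2 had 43.2 and 46.9 CPM in neutrophil-like cells and 276 and 177 in dendritic-like cells. The GM-CSF alpha chain gene Csf2ra shared only some of these cells, with 213 and 217 CPM in monocyte-like, 154 and 178 in neutrophil-like and 158 and 162 in macrophage-like cells. In dendritic-like cells it had 43.5 and 39.3 CPM. In endothelial-like cells it had 0.999 and 1.91 times the background at 90% purity, and in the mast or basophil-like cells of the aged pool 0.838 times, from 2 UMIs. At 98% purity these were 3.42 and 7.35 times and 3.22 times. The IL-3 alpha chain gene Il3ra had 44.8 and 56.1 CPM in fibroblast-like, 51.6 and 53.9 in endothelial-like and 0.672 and 1.06 in neutrophil-like cells. Per endothelial-like cell Il3ra was 170 and 91.0 times the background at 90% purity and 234 and 111 times at 98%.

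**Figure D3:**
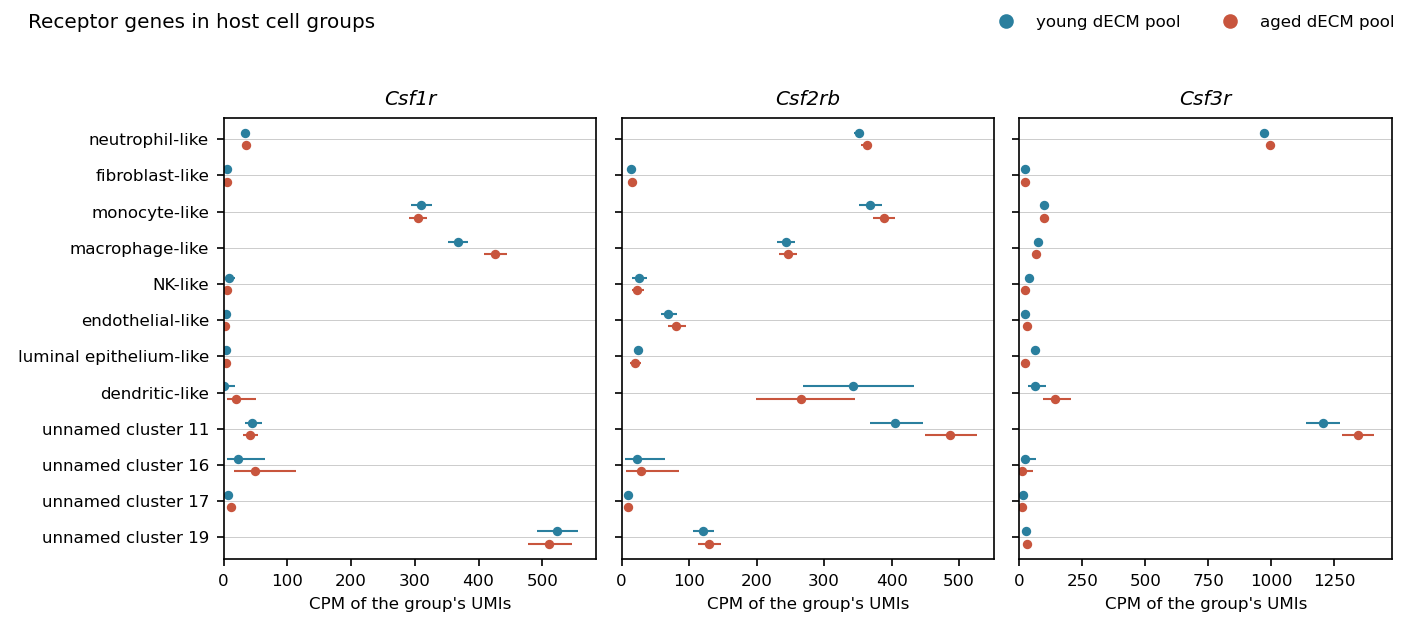
Level of the receptor genes Csf1r, Csf2rb and Csf3r in the same host groups, as CPM on linear axes that differ by gene, with points for pool sums and bars for 95% Poisson intervals. Csf3r has 970 and 995 CPM in neutrophil-like cells, and Csf1r 305 to 524 CPM in monocyte-like and macrophage-like cells and unnamed cluster 19.

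Neutrophil-like cells were not uniform. The class joined 9 clusters, and Csf1 ran from 66.2 and 77.6 CPM in cluster 1 to 684 and 740 CPM in cluster 6, a range of 10.3-fold and 9.53-fold. Cluster 1 was led by Ngp, Camp and Retnlg, granule genes of immature neutrophils, and cluster 6 carried Tnf and Il23a. Csf3r varied less, with cluster 2 highest in both pools at 1394 and 1494 CPM. Csf2rb was also highest in cluster 2, at 491 and 496 CPM, and lowest in cluster 0, at 256 and 255. Csf3 was highest in cluster 9, which was led by the chemokine genes Ccl3 and Ccl4, at 54.5 and 40.6 CPM. The same clusters were at the top in each pool for these 4 genes.

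**Figure D4:**
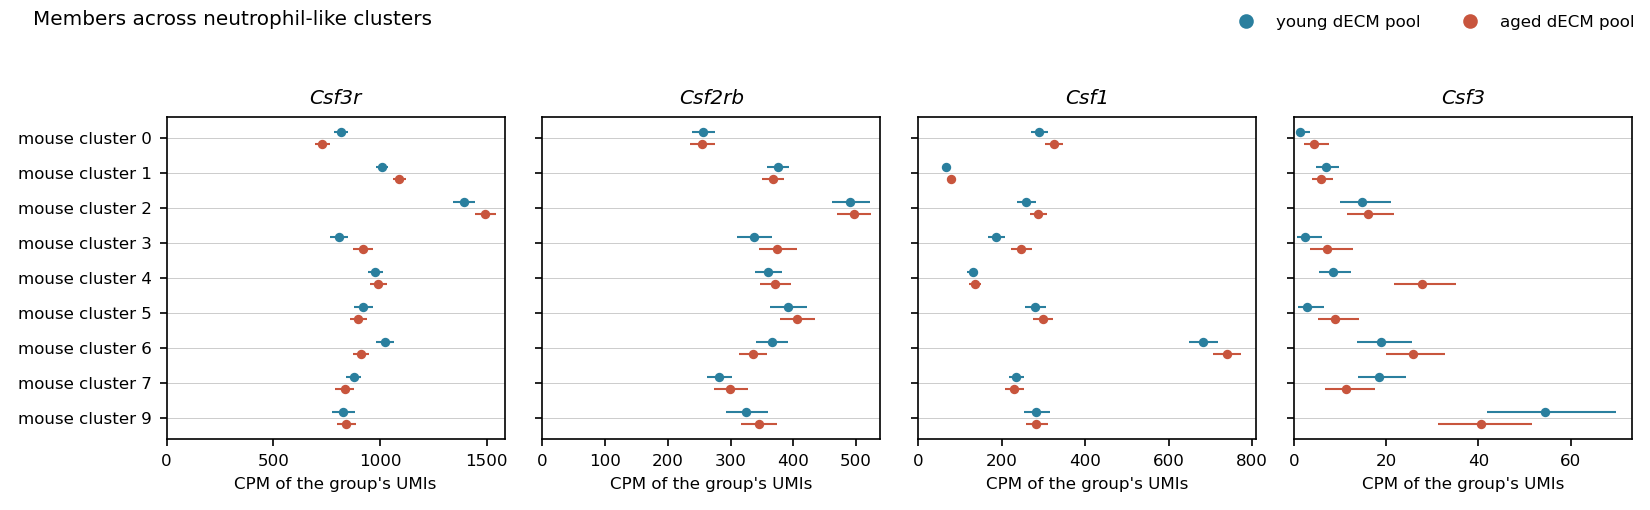
Csf3r, Csf2rb, Csf1 and Csf3 across the 9 neutrophil-like clusters, as CPM on linear axes that differ by gene. Points are pool sums and bars 95% Poisson intervals. Cluster 6 stands out for Csf1 (684 and 740 CPM) and cluster 2 for Csf3r (1394 and 1494 CPM).

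Between the pools the receptor genes moved little, as did most genes compared. The summed fibroblast-like levels of Csf2 and Csf3 were lower in the aged pool. The Csf2 difference was small and did not hold in every fibroblast cluster. Genes were compared in classes with 100 or more cells per pool. A gene needed 100 or more UMIs in the pools together and a level of 20 CPM or more in either one. It stood apart at 1.5-fold or more. Of 58 pairs of a gene and a class 21 met the minimum, and 1 of them was higher and 3 lower in the aged pool. Over all genes the share apart was 4.24% in fibroblast-like, 4.62% in endothelial-like, 1.08% in monocyte-like and 0.522% in neutrophil-like cells. It was 1.85% in macrophage-like and 4.3% in NK-like cells, 2.5% in unnamed cluster 11 and 19.2% in the shallow unnamed cluster 16. The receptor genes stood apart in 0 of the classes where they were compared, and their log2 ratios ran from -0.13 to 0.26. With doublets kept, Csf3r in endothelial-like cells passed the threshold, at 21.4 and 34.1 CPM. With 1 library per pool, matrix age cannot be told apart from any other difference between the libraries.

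Csf3 in fibroblast-like cells was 2.21-fold lower in the aged pool (1.96 to 2.50). Csf2 there was 1.52-fold lower (1.36 to 1.70), just past the threshold, and lay within it without doublet removal (log2 ratio -0.55) and at a Leiden resolution of 0.5 (-0.55). In this class 1.12% of all genes compared were lower. The class held different mixtures of 2 clusters. Cluster 12, led by Dpt and Pi16, had 290 and 609 cells, and cluster 13, led by Grem1 and Spp1, had 356 and 409. Csf3 in cluster 13 fell from 37.5 to 13.3 CPM, 2.83-fold lower (2.40 to 3.35). Over all genes compared the share apart was 1.91% in cluster 13 and 2.32% in cluster 12. In cluster 12 it had 30.7 and 19.7 CPM, but without the richest cell of each pool the log2 ratio was -0.13 and the call was lost. Csf2 was 1.53-fold lower in cluster 13 (43.9 and 28.6 CPM). In cluster 12 it had 5.76 and 14.3 CPM, the opposite direction, at levels below the minimum. Il34 was 1.90-fold lower in cluster 12 (1.53 to 2.35), with 29.9 and 15.8 CPM, and had 12.7 and 15.9 CPM in cluster 13. Csf1 was level within each cluster, with log2 ratios of 0.06 and -0.01.

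Csf3 in endothelial-like cells was 1.76-fold lower in the aged pool (1.32 to 2.36), and stayed 35.2 and 18.9 CPM without the richest cell of each pool. Cells with 1 hashing tag were too few for this class. Csf1 in monocyte-like cells was 2.00-fold higher (1.43 to 2.81), from 10.96 to 21.9 CPM. Per barcode it was 0.734 and 1.25 times the background at 90% purity and 2.66 and 3.15 times at 98%, and 18.4% of the aged UMIs were in 1 cell. The call was lost when doublets were kept (log2 ratio 0.01). It also fell below the minimum without the richest cells, with cells weighted equally and in cells with 1 hashing tag. At a Leiden resolution of 0.5 Csf1 in monocyte-like cells was not called either.

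**Figure D5:**
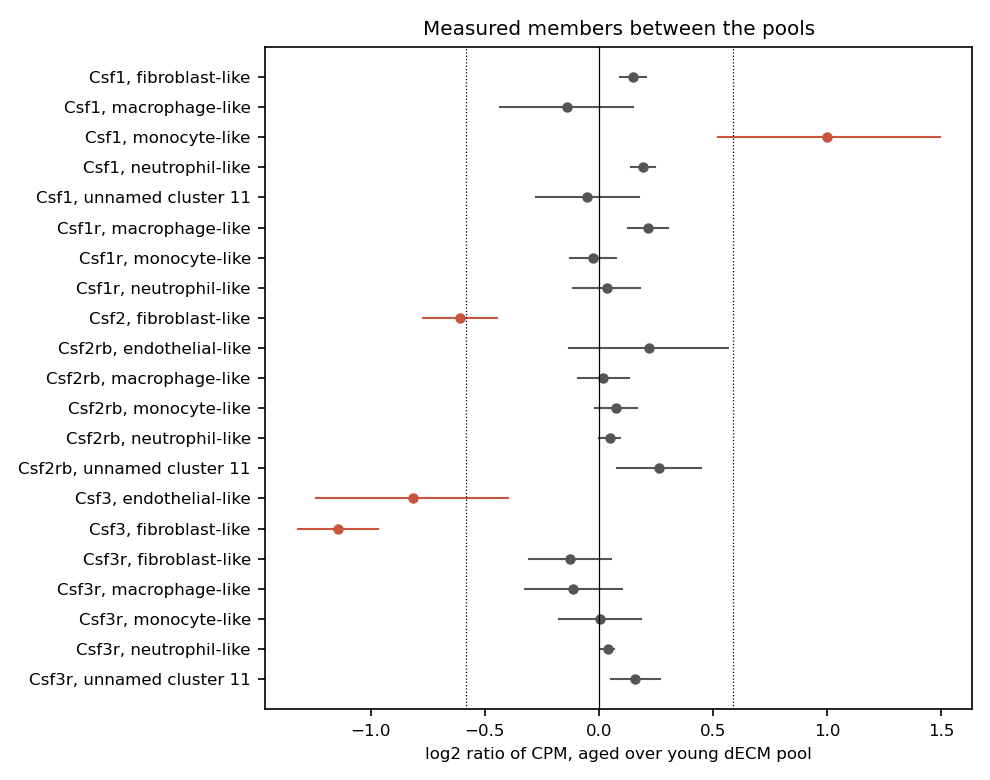
Log2 ratio of CPM, aged over young pool, for the 21 pairs of gene and class that met the minimum. Points are the ratios, bars exact 95% counting intervals, and dotted lines 1.5-fold. The 4 pairs apart are coloured, and the receptor genes lie inside the dotted lines.

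Of the 6 fixed lists of mouse partner and pathway genes few members stood apart. Of all genes compared, 0.522% to 19.2% did, depending on the class. In fibroblast-like cells the transcription factor gene Klf4 was higher in the aged pool (286 and 488 CPM). In endothelial-like cells the adaptor gene Tyrobp (58.9 and 100.3 CPM), the feedback inhibitor gene Socs3 (246 and 386 CPM) and Cebpb (194 and 301 CPM) were higher. Il1a, whose product induces colony-stimulating factors, was lower in macrophage-like cells (348 and 189 CPM), and Il1b in NK-like cells (1191 and 539 CPM). The background in human barcodes was not computed for any list gene named here. How much of these levels was RNA of other cells is therefore not known. Runx1 was higher in unnamed cluster 11 (72.8 and 135 CPM), and Cebpb in the shallow unnamed cluster 16 (503 and 800 CPM). In neutrophil-like cells 0 of 7 compared inducer genes and 0 of 10 compared adaptor and signalling genes stood apart. With 0.522% of all genes apart in that class, these counts do not set the lists off from other genes.

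Genes with the most similar layout were found by Pearson's r of log2(CPM + 1) over 24 profiles, 12 groups in each pool, as a description. Groups of 1 library share its depth and free RNA. Csf2rb was closest to the kinase gene Lyn (r = 0.99) and to Skap2 (0.96), and Csf3r to Trem1 (0.98), Grina (0.97) and Mcl1 (0.97). Csf1r was closest to Clec4a2 (0.95), the Fc receptor gene Fcgr1 (0.90) and the lysozyme gene Lyz2 (0.90). For the ligands the nearest were Cmya5, Podnl1 and Gzme for Csf2 (0.95, 0.92 and 0.91), Zfp503 for Csf3 (0.86), Rbp4 for Il34 (0.85) and 4833412C05Rik for Csf1 (0.91). In tumour clusters CSF3 was closest to MYH15 (0.98) and MFAP2 (0.97), and CSF1 to MCAM (0.86) and BTC (0.84).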

How the data were processed

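The deposited matrices hold UMI counts per gene and barcode, made by the authors with Cell Ranger 6.0.0 on GRCh38 and mm10, per the submitters' processing notes. Barcodes were called human at 90% or more human UMIs and mouse at 90% or more mouse UMIs, and those below 500 UMIs or 300 genes, or above 20% mitochondrial UMIs, were dropped. Doublets at a Scrublet score of 0.25 or more were removed. Cells of each species were clustered over both pools with scanpy 1.11.5 (2000 variable genes, 30 components, 15 neighbours, Leiden resolution 1), with the 9 genes and their partner chains left out, 17 genes in all. Naming a cluster needed at least 20 cells, at least 3 fixed markers of a set and more markers than any other set gave. No other set could have more markers than the chosen set among the cluster's 10 leading genes. A shallow cluster also needed a marker of the chosen set there. UMIs were summed per group and given as CPM with exact Poisson intervals, and ratios with exact conditional intervals. The comparison rule was run on simulated fibroblast-like sums. It found 100 of 100 genes raised 2-fold, 100 of 100 lowered 3-fold and 0 of 5553 unchanged, and 5243 of 5553 intervals held the true ratio. These sums held counting error only, and the changed genes lay well above the minimum level and threshold, so recovery was nearly fixed in advance. Genes near the minimum, UMIs concentrated in few cells and differences between libraries were not simulated. TMM (edgeR 4.0.16) and median-of-ratios factors (DESeq2 1.42.0) served as alternatives only. The genes and lists were chosen with earlier results of these data known. Named genes are the 9 genes, the list genes that stood apart, and up to 3 genes most like each; cluster leaders, CSF2, IL34 and the partner chains were added for context. The 98% background and CSF2 without its richest cells were added after the data were seen. Surface antibodies had 0.028 and 0.063 UMI per cell and none was used. Mouse coordinates were not used here, and some genes that the naming rule covers are not reported here.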

Additional observations from a re-analysis of the deposited data

How the results depend on the processing

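The 4 gene and class pairs apart became 2 at a Leiden resolution of 0.5 and 2 in cells with 1 hashing tag, 3 without doublet removal, with every cell weighted equally or without the richest cell of each pool, and 4 under the other alternatives with a minimum. Without a minimum 17 were apart, and over all genes 31068 pairs in place of 931. Csf3 in fibroblast-like cells was apart under every alternative run, Csf2 there in all but the resolution of 0.5 and kept doublets, and Csf3r in endothelial-like cells became apart with doublets kept. Of the 7 mouse genes 5 had the same leading named class in both pools, and 6 with cells weighted equally. Log2 ratios by tag for CSF3 were -2.22 and 2.25, for tags that the labels do not link between the pools. The median surface antibody count per cell was 0. TMM shifted all ratios of neutrophil-like cells by -0.11 on the log2 scale, and those of unnamed cluster 16 by -0.25. Shares of cells with a UMI depended on thinning depth, and near 20 CPM small classes were limited by few UMIs. No paired analysis was possible because each pool was 1 library.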
